A study of Mus musculus with 24 samples.

Results

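Transcript levels of 9 genes were read in mouse liver: albumin (Alb), transthyretin (Ttr) and alpha-fetoprotein (Afp), which hepatocytes secrete, and the transcription factors Hnf4a, Cebpa, Foxa2, Foxa3, Onecut1 and Prox1, which set hepatocyte identity. The genes were chosen by symbol, through the Ensembl identifiers that the authors' deposited tables pair with each symbol, to read the regulators of Alb beside Alb. All 9 were found among the 56941 genes of the count table, and all 9 passed the filter on low counts that left 20514 genes for testing. A lower Alb level in both Bmal1 knockouts was known when the genes were chosen. The knockout values of Alb are therefore given as a description without a test, and calls in the knockout comparisons are counted over the other 8 genes.

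Bmal1 encodes a transcription factor of the circadian clock. Global knockouts (KO, Bmal1-/-) were compared with wild-type mice (WT, Bmal1+/+), both bred from C57BL/6J heterozygotes. Mice lacking Bmal1 in liver (LKO, Alb-Cre with both Bmal1 alleles floxed) were compared with floxed mice that carry no Cre (F). Livers were taken at circadian time CT2 or CT14, with 3 libraries for each of the 8 groups of genotype and time, 24 in all. Cre in LKO is driven by the albumin promoter, so deletion falls on cells in which that promoter is active, in liver chiefly hepatocytes, and other liver cells keep Bmal1. LKO carried the Alb-Cre transgene and F did not, so loss of Bmal1 and the presence of that transgene cannot be told apart. WT and KO came from a different breeding line than F and LKO, so line and floxed allele cannot be told apart in comparisons between F and WT. The labels give neither age nor sex, and they do not say whether replicates were separate animals, so p-values may measure only technical spread between samples.

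Hepatocyte transcription factors form a network in which members bind one another's promoters and those of genes for secreted proteins. HNF4A is a nuclear receptor and a central node of that network, CEBPA is a basic leucine zipper factor, FOXA2 and FOXA3 are forkhead factors that open chromatin, ONECUT1 (HNF6) is a cut-homeodomain factor, and PROX1 is a homeodomain factor that acts with HNF4A. The albumin promoter is a classical liver promoter, bound by C/EBP factors and by DBP, a PAR bZIP factor whose gene is driven by the BMAL1 complex through E-boxes.

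The sequences before the start sites of Alb and Onecut1 are shown because Alb held the only PAR bZIP motifs and Onecut1 held the only E-box found in these genes. They come from RefSeq on build GRCm38.p6, whereas the deposited tables used GRCm39, and each gives the 250 bases before an annotated start, 5' to 3' on the plus strand. Capitals mark matches, on either strand, to the E-box CACGTG or the PAR bZIP motif TTATGNAA.
Alb, chr5:90460620-90460869: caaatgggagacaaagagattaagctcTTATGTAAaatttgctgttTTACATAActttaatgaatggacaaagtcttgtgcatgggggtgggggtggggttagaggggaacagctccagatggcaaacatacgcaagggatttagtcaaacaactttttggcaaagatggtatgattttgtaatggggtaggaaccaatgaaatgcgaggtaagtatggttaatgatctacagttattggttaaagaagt
Onecut1, chr9:74861671-74861920: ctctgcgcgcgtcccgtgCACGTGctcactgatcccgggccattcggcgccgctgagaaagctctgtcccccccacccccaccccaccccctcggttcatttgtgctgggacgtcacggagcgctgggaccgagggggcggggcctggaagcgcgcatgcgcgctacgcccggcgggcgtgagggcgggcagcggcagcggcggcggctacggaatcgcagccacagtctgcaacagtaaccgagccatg

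Windows were matched for 8 of the 9 genes, all but Ttr, and the search covered 300 bases, 250 before the start and 50 from it on. Alb held PAR bZIP matches 223 and 204 bases before its start. Of 32851 RefSeq windows of that length, 3.38% held the PAR bZIP motif and 7.15% the E-box. Onecut1 held an E-box 232 bases before its start. No match to these letters was found in the windows of Afp, Hnf4a, Foxa2, Foxa3, Cebpa and Prox1. The motifs do not overlap, and a match is a description of letters, not of binding. Sites that differ from these letters were not searched for, so the capitals do not show where a factor acts. Along the chromosome the order was Ankrd17, Alb, Afp, Afm and Albfm1.

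Total counts per library ran from 88995000 to 131540000. Bmal1 (ENSMUSG00000055116) followed the labels at CT2, at 30.7, 33.8 and 31.2 CPM in WT, 7.47, 7.15 and 7.57 CPM in KO, 29.1, 29.8 and 26.6 CPM in F, and 7.63, 7.91 and 6.57 CPM in LKO. CPM are read counts relative to the library total after TMM scaling. At CT14 Bmal1 is low in controls and could not check the labels, at 2.93 to 8.16 CPM in WT, 6.66 to 7.53 in KO, 3.26 to 14.97 in F and 5.46 to 5.96 in LKO. The 8 hepatocyte markers outside the gene set were detected throughout, with summed levels of 15124 to 26774 CPM. Summed pancreatic acinar markers reached 2234 CPM in F CT2 replicate 3 and 629 CPM in F CT14 replicate 3, against 23.9 to 102 CPM elsewhere. Summed spermatid markers were 0.149 to 0.815 CPM in WT and 5.13 to 23.4 CPM in F and LKO. In KO they were 5.37 CPM in CT2 replicate 2, 6.29 CPM in CT14 replicate 1 and 0.411 to 0.788 CPM in the other 4 libraries, and edgeR called 5 of the 7 markers higher in KO than in WT. Without those 2 KO libraries, 0 of the 8 genes other than Alb were called in KO against WT averaged over both times, as with them.

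Alb (ENSMUSG00000029368), the main protein of blood plasma, was the gene with the most counts in all 24 libraries. Its levels were 61610, 75826 and 92878 CPM in WT CT2 and 78992, 68910 and 82890 CPM in WT CT14. KO CT2 gave 55662, 29090 and 37026 CPM, and KO CT14 gave 50102, 34645 and 45515 CPM. Every KO library lay below every WT library. F CT2 gave 76529, 73540 and 75201 CPM, and F CT14 gave 67442, 109900 and 76994 CPM. LKO CT2 gave 38891, 36956 and 49240 CPM, and LKO CT14 gave 44356, 40965 and 33310 CPM. Every LKO library again lay below every control library, and the 4 control groups overlapped one another, as did the 4 knockout groups.

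Averaged over both times, Alb was at 0.546 times the WT level in KO, with a log2 fold change of -0.87 and a standard error (SE) of 0.17, and at 0.509 times the F level in LKO, with a log2 fold change of -0.97 (SE 0.17). At CT2 the log2 fold changes were -0.92 in KO and -0.85 in LKO, and at CT14 -0.83 in KO and -1.10 in LKO, each with SE 0.24. Leaving out 1 library at a time gave -1.22 to -0.73 in KO at CT2. The value of -1.22 came without KO CT2 replicate 1, the KO library highest in Alb. F and WT differed by 0.05 (SE 0.17), adjusted p = 0.957. The ranges of Alb at the 2 times overlapped in all 4 genotypes, with log2 fold changes at CT14 against CT2 of 0.00 in WT, 0.10 in KO, 0.18 in F and -0.08 in LKO, and adjusted p from 0.81 to 1. The share of all counts taken by Alb was 5.86 to 10.4% in the control libraries and 3.15 to 5.31% in the knockouts, so it weighs in the library totals that TMM then adjusts. Scaling was also run without the 50 highest genes. The median log2 fold change of all genes over both times was then 0.015 in KO and 0.002 in LKO, against 0.008 and -0.006.

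**Figure D1:**
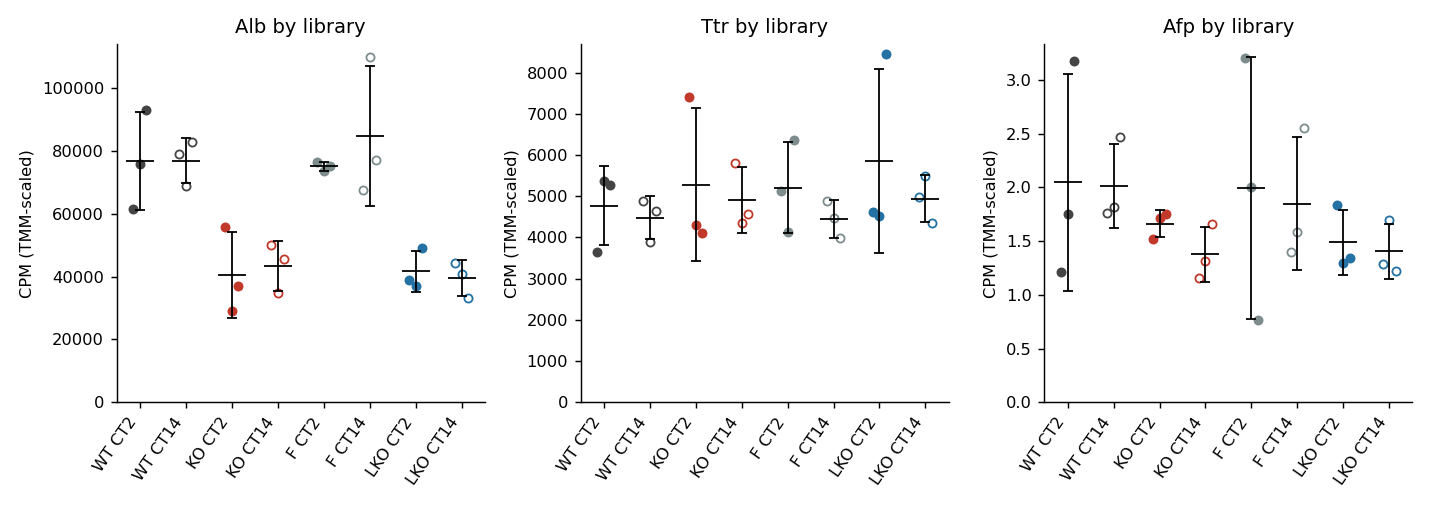
Levels of Alb, Ttr and Afp in each library, in TMM-scaled CPM on linear axes that start at 0 (filled points CT2, open points CT14; bar and whiskers, mean and SD of 3 libraries). Alb points of KO and LKO all lie below those of WT and F, while those of Ttr and Afp overlap across most groups.

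In bulk liver, fewer hepatocytes and less RNA per hepatocyte cannot be told apart. The summed level of the other hepatocyte markers (Apoa1, Cps1, Ass1, Tat, Cyp3a11, Asgr1, Fah and Tdo2) was 18325 to 26774 CPM in KO CT2 against 15124 to 19084 CPM in WT CT2, and 19074 to 22279 CPM in KO CT14 against 20402 to 21613 CPM in WT CT14. KO and WT ranges overlapped at both times; the KO mean was the higher at CT2 and the lower at CT14, at 20423 CPM against 20885 CPM. In LKO the sum was 20255 to 24017 CPM at CT2 and 20688 to 23591 CPM at CT14, above all F libraries, which had 16853 to 18760 CPM and 19242 to 19350 CPM. Of these 8 markers, 1 was called lower in KO (Tat) and 0 in LKO by edgeR, beside 5.4% and 3.13% of all genes. The part of hepatocyte number in the Alb level was not tested.

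Ttr (ENSMUSG00000061808), which carries thyroid hormone and retinol-binding protein in plasma, was called in neither knockout. It stood at 3659, 5366 and 5279 CPM in WT CT2, 4892, 3893 and 4653 CPM in WT CT14, 7414, 4290 and 4120 CPM in KO CT2, and 5818, 4347 and 4566 CPM in KO CT14. F CT2 gave 5123, 4143 and 6365 CPM and F CT14 4894, 4483 and 3984 CPM, and LKO CT2 gave 4619, 4532 and 8444 CPM and LKO CT14 4982, 5494 and 4354 CPM. Knockout and control ranges overlapped at both times. The highest libraries of all were LKO CT2 replicate 3 and KO CT2 replicate 1, followed by F CT2 replicate 3. These are the libraries low in Ddx3y that a setting given below leaves out, and what they share was not tested. The log2 fold change was 0.14 (SE 0.18, 95% interval -0.24 to 0.51) in KO and 0.16 (SE 0.18, -0.21 to 0.54) in LKO, with adjusted p of 0.801 and 0.869. Intervals here and below are not adjusted for the number of genes.

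TPM, which correct for transcript length, allow genes to be compared within a library. Over all libraries Alb averaged 48882 TPM, Ttr 7120 TPM, Cebpa 264, Hnf4a 260.0, Foxa3 44.0, Foxa2 26.5, Prox1 17.2, Onecut1 14.3 and Afp 2.25 TPM. Alb TPM over Ttr TPM was 8.24 to 10.4 in the 6 WT libraries, 3.95 to 5.81 in KO, 6.89 to 14.3 in F and 3.40 to 5.19 in LKO. This ratio needs no scaling between libraries, and no knockout library reached the lowest control library. Relative to Gc, the vitamin D binding protein of the albumin family, Alb was 9.84 to 13.8 times as high in WT, 4.49 to 7.46 in KO and 11.6 to 17.3 in F. In LKO it was 6.36 to 10.6 times as high, below every F library. Since Alb is in the numerator, these ratios restate its level and are no separate evidence.

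**Figure D2:**
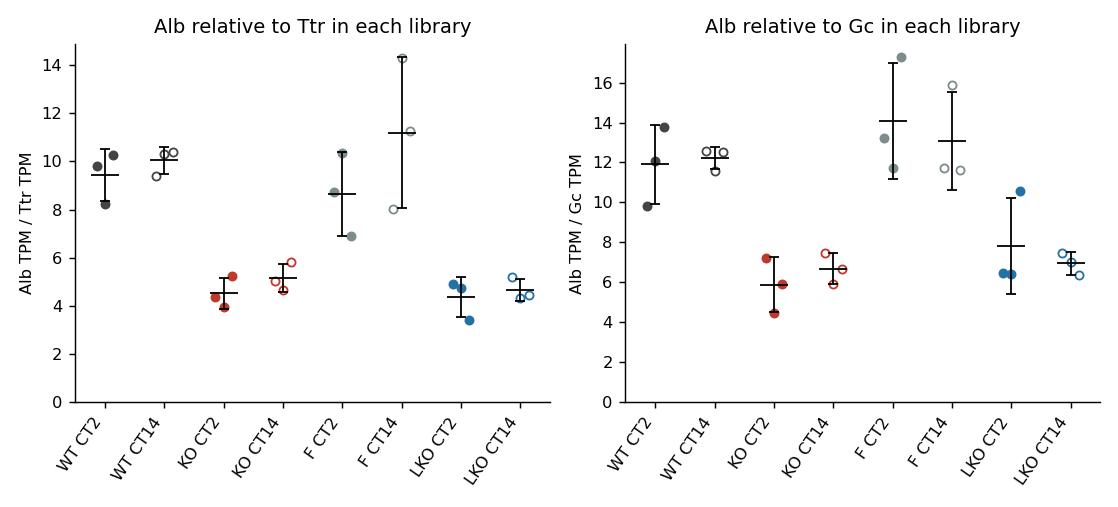
Alb TPM divided by Ttr TPM (left) and by Gc TPM (right) in each library, on linear axes that start at 0 (filled points CT2, open points CT14; bar and whiskers, mean and SD of 3 libraries). Ratios to Ttr are 3.40 to 5.81 in knockouts and 6.89 to 14.3 in controls, without overlap.

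Afp (ENSMUSG00000054932), the fetal counterpart of albumin, is largely silent in adult liver and had the lowest mean TPM of the 9 genes; its levels ran from 0.768 to 3.21 CPM. Levels were 1.21, 1.75 and 3.17 CPM in WT CT2, 1.76, 1.82 and 2.47 CPM in WT CT14, 1.52, 1.71 and 1.75 CPM in KO CT2, and 1.15, 1.31 and 1.66 CPM in KO CT14. F CT2 gave 3.21, 2.003 and 0.768 CPM and F CT14 1.40, 1.59 and 2.55 CPM, and LKO CT2 gave 1.83, 1.29 and 1.34 CPM and LKO CT14 1.29, 1.70 and 1.22 CPM. KO lay below WT without overlap at CT14, and all other knockout ranges overlapped with those of their controls. The log2 fold change was -0.43 in KO and -0.41 in LKO (SE 0.28 each, adjusted p 0.493 and 0.658). The other albumin family genes of the locus and of the plasma were measured more firmly: Afm, which binds vitamin E, differed by -0.07 (SE 0.12) in KO and -0.03 (SE 0.12) in LKO, and Gc by 0.06 and -0.09 (SE 0.11 each), none of them called at either time.

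None of the regulators passed the test in either knockout. In KO the estimates of Onecut1, Foxa3, Foxa2, Cebpa and Hnf4a were below 0 and that of Prox1 above it, and in LKO those of Onecut1 and Cebpa lay farthest below 0. Among the 8 genes other than Alb, edgeR called 0 in KO against WT averaged over both times, where 5.4% of all genes tested were called, and 0 in LKO against F, where 3.13% were called. At an unadjusted p under 0.05 these counts were 4 (Foxa2, Foxa3, Cebpa and Onecut1, all lower) and 1 (Cebpa, lower). DESeq2 called 2 in KO (Foxa3 and Onecut1) and 0 in LKO, and limma-trend on log2 TPM 0 in both. The median log2 fold change of the 8 was -0.43 in KO and -0.16 in LKO, beside 0.01 and -0.01 over all genes tested. In the authors' deposited table, 4 of the 8 passed an adjusted p of 0.05 in KO (Foxa2, Foxa3, Cebpa and Onecut1; 8.31% of genes with an adjusted p there) and 0 in LKO (3.65%). In edgeR the smallest adjusted p of the 8 was 0.0785 in KO, for Foxa3, and 0.292 in LKO, for Cebpa.

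At single times edgeR called 0 of the 8 in KO at CT2 (0.517% of all genes), 0 in KO at CT14 (5.31%), 0 in LKO at CT2 (0.4%) and 0 in LKO at CT14 (1.73%). At an unadjusted p under 0.05 there were 0, 3, 1 and 0. DESeq2 called 2 in KO at CT14 (Cebpa and Onecut1) and 0 in the other 3, and limma-trend 0 in all 4. The levels themselves separated most in KO at CT14, where all KO libraries lay below all WT libraries for 6 of the 8 genes (Afp, Hnf4a, Foxa2, Foxa3, Cebpa and Onecut1), beside 12.5% of all genes tested. In LKO at CT14 this held for 2 of 8 (Foxa3 and Onecut1; 11.7% of all genes), and at CT2 for 0 of 8 in KO (6.94%) and 0 of 8 in LKO (4.46%). The authors' deposited tables gave 3 of 8 in KO at CT14 (Foxa3, Cebpa and Onecut1; 12.3% of genes) and 1 of 8 in LKO at CT14 (Onecut1; 11.7%).

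**Figure D3:**
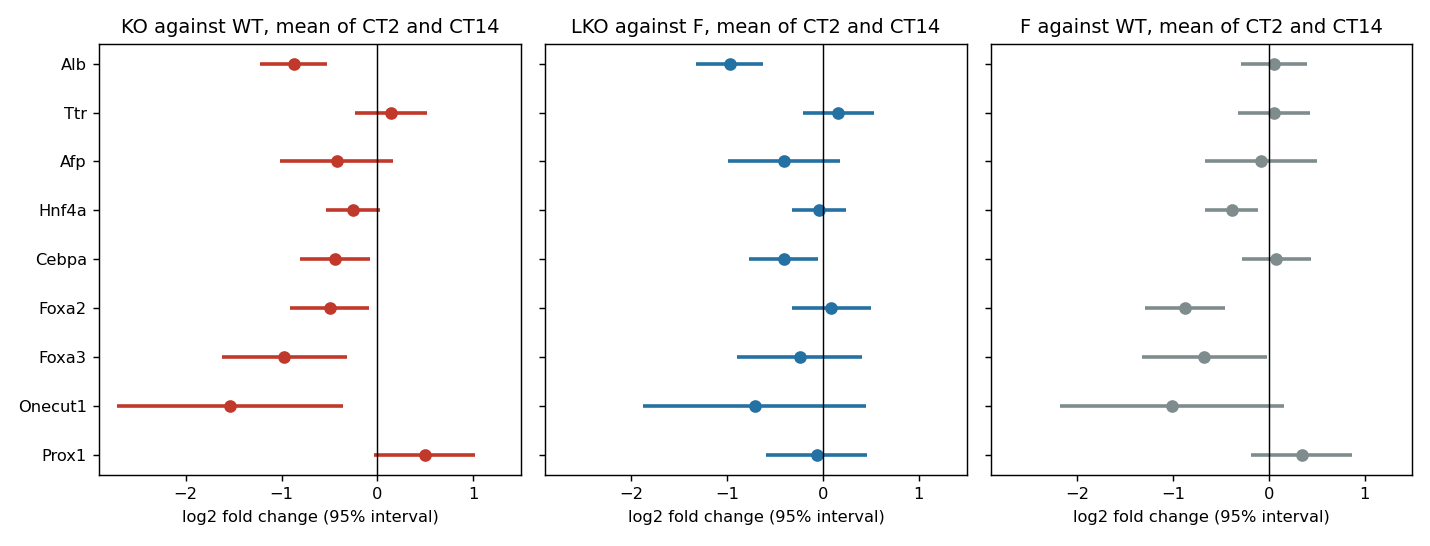
Log2 fold change of each gene with its unadjusted 95% interval from edgeR, averaged over CT2 and CT14, for KO against WT, LKO against F and F against WT (3 libraries per group and time). Alb is at -0.87 and -0.97 in the knockouts, points given as a description without a test. Among the points tested, only that of Foxa2 in F against WT was called.

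The intervals set the possible changes of the regulators, averaged over both times, beside the change of Alb. In LKO, where Alb was at -0.97, the 95% interval of the log2 fold change ran from -0.32 to 0.24 for Hnf4a, from -0.77 to -0.05 for Cebpa, from -0.59 to 0.46 for Prox1 and from -0.89 to 0.40 for Foxa3. That of Foxa2 began at -0.33 and ended at 0.50. These 5 left out the point estimate of Alb, while Onecut1 (-1.87 to 0.45) and Afp (-0.996 to 0.18) included it. In KO, where Alb was at -0.87, the intervals of Hnf4a (-0.54 to 0.02), Cebpa (-0.80 to -0.08) and Prox1 (-0.03 to 1.02) left that estimate out. Those of Foxa2 (-0.91 to -0.08), Foxa3 (-1.63 to -0.32), Onecut1 (-2.72 to -0.36) and Afp (-1.01 to 0.16) included it. The interval of Alb itself ran from -1.32 to -0.63 in LKO and from -1.22 to -0.52 in KO. It overlapped some intervals that left out the point estimate, those of Cebpa and Foxa3 in LKO and of Hnf4a and Cebpa in KO. At single times the intervals were wider, and in KO at CT14 that of Cebpa (-1.33 to -0.30) included the Alb estimate of -0.83. In LKO at CT2, where Alb was at -0.85, those of Cebpa (-1.06 to -0.04), Prox1 (-1.20 to 0.29) and Foxa3 (-0.95 to 0.89) included it, and in LKO at CT14, where Alb was at -1.10, that of Foxa3 (-1.38 to 0.46) did. Whether a gene's fold change differed from that of Alb was not tested.

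Hnf4a (ENSMUSG00000017950) stood at 876, 631 and 758 CPM in WT CT2, 760.0, 887 and 844 CPM in WT CT14, 589, 671 and 719 CPM in KO CT2, and 676, 647 and 677 CPM in KO CT14. F CT2 gave 490, 357 and 591 CPM and F CT14 946, 662 and 689 CPM, and LKO CT2 gave 412, 437 and 580.2 CPM and LKO CT14 663, 658 and 854 CPM. F and LKO ran together, low at CT2 and higher at CT14 without overlap between the times, and WT and KO did not show that separation. The log2 fold change was -0.26 (SE 0.13) in KO, adjusted p = 0.34, and -0.04 (SE 0.13) in LKO, adjusted p = 0.979. From CT2 to CT14 it was 0.68 (SE 0.19, adjusted p = 0.0608) in F and 0.61 (SE 0.19, adjusted p = 0.152) in LKO. Its call in F depended on the setting. Leaving out F CT2 replicate 3 gave 0.86 with an adjusted p of 0.0358, and leaving out LKO CT2 replicate 3 gave 0.0476. That F library is 1 of the 2 with pancreatic transcripts, and leaving out both gave no call. In WT the time difference was 0.14 (SE 0.19) and in KO 0.02 (SE 0.19).

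Of 14 known HNF4A target genes, edgeR called 2 higher and 0 lower in both knockouts (5.4% of all genes in KO, 3.13% in LKO). They were Lipc, hepatic lipase, at 0.54 (SE 0.09, adjusted p = 0.00119) in KO and 0.82 (SE 0.10, adjusted p = 2.25e-05) in LKO, and Agxt, a peroxisomal aminotransferase, at 0.97 (SE 0.23, adjusted p = 0.0138) and 1.23 (SE 0.23, adjusted p = 0.00319). The median of the 14 was -0.03 in KO and -0.01 in LKO.

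Cebpa (ENSMUSG00000034957) stood at 343, 320 and 396 CPM in WT CT2 and at 463, 485 and 530 CPM in WT CT14. KO CT2 gave 320, 358 and 332 CPM and KO CT14 314, 234 and 291 CPM. At CT2 KO and WT overlapped, and at CT14 every KO library was below every WT library. F CT2 gave 372, 307 and 611 CPM and F CT14 534, 384 and 439 CPM, and LKO CT2 gave 297, 174 and 412 CPM and LKO CT14 391, 364 and 370 CPM, overlapping with F at both times. The log2 fold change was -0.44 (SE 0.17, adjusted p = 0.161) in KO and -0.41 (SE 0.17, adjusted p = 0.292) in LKO, a difference of -0.03 (SE 0.24, 95% interval -0.54 to 0.48). In KO it was -0.07 (SE 0.24) at CT2 and -0.82 (SE 0.25, adjusted p = 0.0583) at CT14. The latter passed the threshold in 9 of 38 alternative settings, with adjusted p from 0.0045 to 0.199 over all 38. It passed when F CT2 replicate 2 or 3 or LKO CT2 replicate 2 or 3 was left out, libraries of neither group compared (adjusted p 0.0433, 0.0257, 0.0213 and 0.0315). The time effect in KO minus that in WT was -0.75 (SE 0.35, adjusted p = 0.517).

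**Figure D4:**
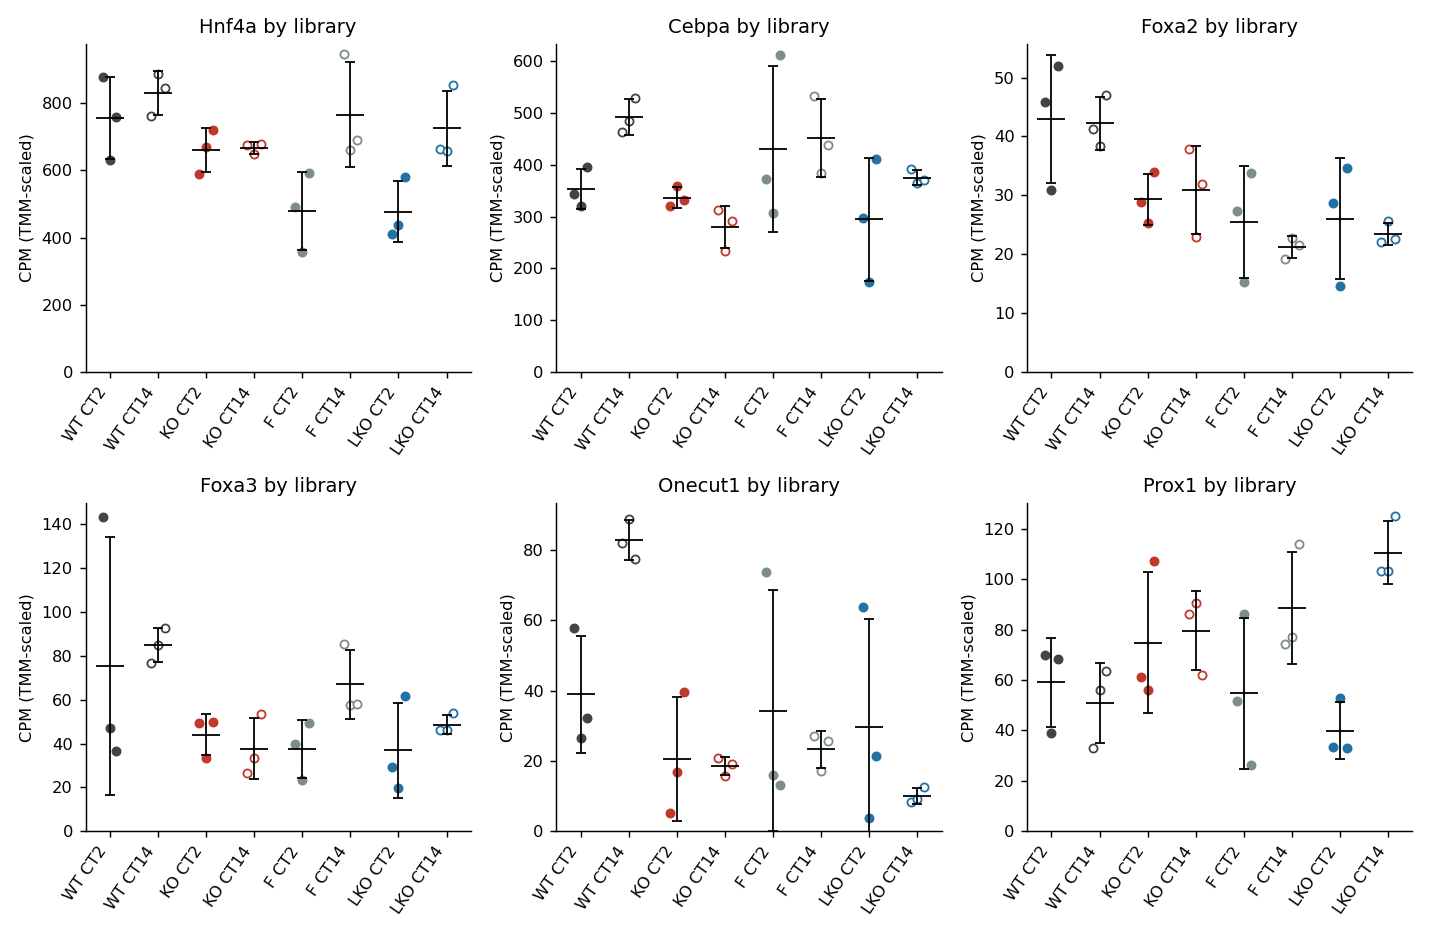
Levels of the 6 transcription factors in each library, in TMM-scaled CPM on linear axes cut at 0 (filled points CT2, open points CT14; bar and whiskers, mean and SD of 3 libraries, cut where the SD passes below 0). At CT14 the KO libraries lie below the WT libraries for all but Prox1, and F and LKO overlap for Hnf4a, Cebpa, Foxa2 and Prox1.

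Foxa2 (ENSMUSG00000037025) stood at 45.9, 30.9 and 51.9 CPM in WT CT2, 41.3, 38.3 and 47.0 CPM in WT CT14, 28.8, 25.4 and 33.9 CPM in KO CT2, and 37.8, 22.9 and 32.0 CPM in KO CT14. F CT2 gave 27.4, 15.2 and 33.9 CPM and F CT14 19.1, 22.8 and 21.6 CPM, and LKO CT2 gave 28.7, 14.7 and 34.7 CPM and LKO CT14 22.1, 25.6 and 22.6 CPM. The 2 highest group means were those of WT, and F and LKO overlapped at both times. The log2 fold change was -0.50 (SE 0.20, adjusted p = 0.169) in KO and 0.09 (SE 0.20, adjusted p = 0.961) in LKO. The effect in KO minus that in LKO was -0.59 (SE 0.28), with an unadjusted p of 0.0493 and an adjusted p of 0.613.

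The 1 call among these genes outside the knockout comparisons was Foxa2 between the control lines. It was lower in F, at 0.546 times the WT level, or -0.87 on the log2 scale (SE 0.20, adjusted p = 0.0233). In F against WT 1 of the 9 genes was called, where 2.54% of all genes tested were called, and 3 had an unadjusted p under 0.05 (Hnf4a, Foxa2 and Foxa3, all lower in F). The call for Foxa2 held in 36 of 38 alternative settings and was lost without WT CT2 replicate 3 (adjusted p = 0.0646) and without WT CT14 replicate 3 (adjusted p = 0.0534). Foxa1, its paralog, also was lower in F by -0.79 (SE 0.18, adjusted p = 0.0197), and was named after its value was seen. Spermatid markers moved with the same division, 7 of 7 called higher in F than in WT, and pancreatic markers were high in 2 F libraries. Without those 2 F libraries Foxa2 was still called. The part of the spermatid transcripts in this difference was not tested.

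Foxa3 (ENSMUSG00000040891) stood at 143, 47.0 and 36.4 CPM in WT CT2, 76.9, 84.8 and 92.5 CPM in WT CT14, 49.3, 33.5 and 49.6 CPM in KO CT2, and 26.4, 33.4 and 53.3 CPM in KO CT14. WT CT2 replicate 1 stood far above its group, and at CT14 KO and WT did not overlap. F CT2 gave 40.0, 23.3 and 49.6 CPM and F CT14 85.4, 57.8 and 57.8 CPM, and LKO CT2 gave 29.3, 19.9 and 61.5 CPM and LKO CT14 46.0, 46.2 and 53.8 CPM. LKO was below F without overlap at CT14 only. The log2 fold change was -0.97 (SE 0.31, adjusted p = 0.0785) in KO and -0.24 (SE 0.31, adjusted p = 0.899) in LKO. In KO it was -0.78 (SE 0.44) at CT2 and -1.17 (SE 0.44, adjusted p = 0.155) at CT14. Without WT CT2 replicate 1 the KO value was -0.54 averaged over both times and 0.08 at CT2. Without WT CT2 replicate 3 the mean over both times was -1.14 with an adjusted p of 0.037, and DESeq2 gave -0.97 with an adjusted p of 0.0243. The difference between the KO and LKO effects was -0.73 (SE 0.44, adjusted p = 0.783).

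Onecut1 (ENSMUSG00000043013) varied most, 22.7 times between the lowest and the highest library. WT CT2 gave 57.9, 26.5 and 32.3 CPM and WT CT14 82.1, 88.8 and 77.5 CPM, and KO CT2 gave 5.13, 16.9 and 39.6 CPM and KO CT14 20.8, 15.7 and 19.1 CPM. F CT2 gave 73.8, 15.99 and 13.05 CPM and F CT14 27.0, 17.2 and 25.7 CPM, and LKO CT2 gave 63.7, 3.91 and 21.3 CPM and LKO CT14 8.26, 9.14 and 12.7 CPM. At CT14 each genotype was tight and each knockout lay below its control without overlap, whereas at CT2 libraries of 1 group differed widely and all ranges overlapped. The standard deviation was 42.9 to 104% of the mean in the CT2 groups and 6.83 to 23.3% in the CT14 groups.

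One spread was estimated per gene over all 8 groups, and the CT2 groups widened it for Onecut1. With it the log2 fold change at CT14 was -2.16 (SE 0.81, adjusted p = 0.153) in KO and -1.21 (SE 0.79, adjusted p = 0.705) in LKO. When only the groups compared were fitted, the values were -2.15 with an adjusted p of 0.000572 in KO and -1.21 with an adjusted p of 0.0237 in LKO, both below the threshold. The authors' deposited tables gave -2.16 (adjusted p 2.34e-36) and -1.21 (adjusted p 2.16e-06). Over 38 alternative settings the KO value at CT14 lay between -2.25 and -1.82, with adjusted p from 0.000572 to 0.326. Averaged over both times the log2 fold change was -1.54 (SE 0.56, adjusted p = 0.133) in KO and -0.71 (SE 0.55, adjusted p = 0.725) in LKO. The LKO value rested on single CT2 libraries, at -0.09 without F CT2 replicate 1 and -1.33 without LKO CT2 replicate 1. From CT2 to CT14 Onecut1 differed by 1.09 (SE 0.78, adjusted p = 0.705) in WT and by -1.56 (SE 0.79, adjusted p = 0.463) in LKO, where it was -0.33 without LKO CT2 replicate 1. Onecut1 and Foxa2 are also transcribed in bile duct cells. Of 6 cholangiocyte markers, 1 was called higher in KO (Sox9; 5.4% of all genes) and 0 in LKO (3.13%). Summed levels of these markers were 29.6 to 72.4 CPM in WT, 36.9 to 267 CPM in KO, 23.7 to 142 CPM in F and 48.5 to 104 CPM in LKO. The part of bile duct cells in the levels of Onecut1 and Foxa2 was not tested.

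The estimate for Prox1 (ENSMUSG00000010175) had the opposite sign in KO. Prox1 stood at 69.9, 38.8 and 68.5 CPM in WT CT2, 33.1, 56.1 and 63.4 CPM in WT CT14, 61.3, 56.2 and 107 CPM in KO CT2, and 86.3, 90.8 and 61.9 CPM in KO CT14. Ranges overlapped at both times, and the log2 fold change was 0.49 (SE 0.25, adjusted p = 0.32). F CT2 gave 51.6, 86.2 and 26.4 CPM and F CT14 74.2, 77.2 and 114 CPM, and LKO CT2 gave 33.5, 53.0 and 33.2 CPM and LKO CT14 103, 103 and 125 CPM. The 2 genotypes overlapped at both times, at -0.07 on the log2 scale (SE 0.25, adjusted p = 0.985), but within LKO all CT14 libraries were above all CT2 libraries. That time difference was 1.47 (SE 0.36, adjusted p = 0.0611), and it was 0.69 (SE 0.36, adjusted p = 0.371) in F. The LKO difference passed the threshold without F CT2 replicate 2 (adjusted p 0.0416), without F CT2 replicate 3 (0.0283) and in DESeq2 (0.00419), and the authors' deposited table gave an adjusted p of 6.26e-07. The time effect in LKO minus that in F was 0.78 (SE 0.50, adjusted p = 0.938). Lymphatic endothelium also makes PROX1, and the summed level of its 5 markers was 89.4 to 122 CPM in LKO CT2 and 101 to 111 CPM in LKO CT14, which overlapped.

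For time of day, edgeR called 0 of the 9 genes in WT (2.54% of all genes tested), 0 in KO (0%), 0 in F (2.66%) and 0 in LKO (0.848%). At an unadjusted p under 0.05 there were 0, 0, 1 (Hnf4a) and 2 (Hnf4a and Prox1). DESeq2 called 0, 0, 1 (Hnf4a) and 1 (Prox1), and limma-trend 0 in each. The authors' deposited tables list Cebpa and Onecut1 in WT, with log2 fold changes of 0.48 and 1.08 at CT14 against CT2 and adjusted p of 0.0272 and 0.002. For the time effect in KO minus that in WT, 0 of the 8 genes other than Alb were called (0.799% of all genes; 1 at an unadjusted p under 0.05, Cebpa), and for LKO minus F 0 of 8 (0.112%; 0 unadjusted). For the effect in KO minus that in LKO, 0 of 8 were called (0.107%; 1 unadjusted, Foxa2). DESeq2 and limma-trend also called 0 in these 3 comparisons.

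Of 13 other factors known to bind the albumin promoter or enhancer, edgeR called 0 higher and 1 lower in KO (5.4% of all genes). The lower gene was Foxa1 (-0.77, SE 0.17, adjusted p = 0.0108). In LKO 1 was called higher and 0 lower (3.13% of all genes), and the higher gene was Tef (0.74, SE 0.12, adjusted p = 0.00124). The median over the 13 was -0.03 in KO and 0.00 in LKO.

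Dbp encodes a factor of the PAR bZIP family, to whose motif letters the Alb sequence above holds matches. In KO Dbp differed from the control in opposite directions at the 2 times. It had 0.847, 0.36 and 0.311 CPM in WT CT2, 27.7, 38.3 and 22.0 CPM in WT CT14, 2.68, 3.81 and 1.62 CPM in KO CT2, and 3.65, 1.22 and 1.89 CPM in KO CT14. F CT2 gave 0.456, 0.498 and 0.44 CPM and F CT14 35.5, 5.67 and 12.4 CPM, and LKO CT2 gave 3.39, 2.75 and 3.06 CPM and LKO CT14 7.38, 5.72 and 6.07 CPM. Both knockouts were above their controls at CT2, by 2.41 (SE 0.54, adjusted p = 0.0473) in KO and 2.72 (SE 0.55, adjusted p = 0.0278) in LKO. At CT14 KO was lower by -3.71 (SE 0.55, adjusted p = 0.000289), and LKO differed by -1.48 (SE 0.51, adjusted p = 0.192). The time effect on Dbp was called in edgeR for both knockouts. It was -6.12 (SE 0.77, adjusted p = 0.00024) in KO minus WT and -4.20 (SE 0.75, adjusted p = 0.0219) in LKO minus F. The related factor Tef, named here after its values were seen, was called higher at CT2 in both knockouts (1.86 and 2.11, SE 0.18 each) and lower at CT14 in KO (-1.25, SE 0.18). For Tef the time effect was also called, at -3.11 (SE 0.25) in KO minus WT and -2.73 (SE 0.25) in LKO minus F.

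Of 21 other transcription factors and nuclear receptors of hepatocytes, edgeR called 0 higher and 2 lower in KO (5.4% of all genes). They were Nr1i2, the xenobiotic receptor PXR, at -0.41 (SE 0.11, adjusted p = 0.0265), and Mlxipl, the glucose-responsive factor ChREBP, at -0.40 (SE 0.11, adjusted p = 0.0379). In LKO 1 was called (3.13% of all genes), Mlxipl at -0.45 (SE 0.11, adjusted p = 0.0274).

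Other secreted plasma proteins moved in both directions. Of 26, edgeR called 10 higher and 1 lower in KO (5.4% of all genes), and 3 higher and 1 lower in LKO (3.13%). The largest in KO were Serpina7, thyroxine-binding globulin, at 2.06 (SE 0.50), Cp, ceruloplasmin, at 1.23 (SE 0.23), Itih3 at 1.05 (SE 0.22) and Fgb, a fibrinogen chain, at 0.77 (SE 0.20), while Serpina6, corticosteroid-binding globulin, was at -1.04 (SE 0.25). In LKO, Itih2 rose by 0.55 (SE 0.09), Apoh by 0.51 (SE 0.10) and Itih1 by 0.50 (SE 0.12), and Ambp was at -0.46 (SE 0.12). Serpina6 was at -0.85 (SE 0.25, adjusted p = 0.0679) in LKO and was called lower at CT14 in both knockouts, at -1.44 (SE 0.35) in KO and -1.71 (SE 0.36) in LKO. The median of the 26 over both times was 0.28 in KO and -0.04 in LKO. At single times edgeR called 0 of the 26 in KO at CT2 (0.517% of all genes). At CT14 it called 9 higher and 1 lower in KO (5.31%). In LKO 1 was called higher at CT2 (0.4%) and 1 lower at CT14 (1.73%). Rbp4, the retinol carrier that circulates bound to transthyretin, was at -0.39 (SE 0.12, adjusted p = 0.0771) in KO and -0.23 (SE 0.12, adjusted p = 0.493) in LKO, and was called at neither time.

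Genes most like each of the 9 were read by Pearson r of log2 CPM over the 24 libraries, among about 7642 genes with a mean of at least 10 CPM, as a description. The libraries differ in genotype, time and depth. Values of r therefore also reflect differences between groups, which for Alb include its lower level in the knockouts. For Alb these were Khk, ketohexokinase (r = 0.899), Pgk1, a glycolytic enzyme (0.866), and Ces1d, a carboxylesterase (0.862). No other member stood among them, and r between Alb and the 8 others ran from -0.22 for Prox1 through 0.06 for Ttr and 0.13 for Hnf4a to 0.53 for Cebpa. Ttr was most like Ptms, Sdhc and Mrpl14 (0.872 to 0.877), and Afp most like Il1rap, Hnrnph3 and Tdp2 (0.679 to 0.713). Hnf4a (Polr1a, Hs6st1 and Fbxo31) and Foxa3 (Hs6st1, Pprc1 and Rundc1) shared Hs6st1, with r between the 2 factors of 0.756. Cebpa was most like Ints15, Map2k3 and Fam20c, Foxa2 like Phlda1, Igfals and Bdh1, Prox1 like Gpatch2, Kpna1 and Ttll4, and Onecut1 like Arid5b, Plcxd2 and a gene without a symbol.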

How the data were processed

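Polyadenylated liver RNA from 24 libraries was prepared with a stranded kit, per the labels' protocols. The submitters' processing notes name StringTie 1.3.1, HISAT2 2.2.1 and fastp 0.23.2 with build GRCm39, with annotation release and strand setting not given in the sources used here. Per Ensembl gene, the authors deposited estimated counts, not normalized, and a second table in TPM. The authors' deposited comparisons hold log2 fold changes and p-values from DESeq2, with model and version not given in the sources used here. Every column was assigned to its library by name.

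Estimated counts were rounded and fitted with edgeR 4.0.16 in R 4.3.3: filterByExpr (minimum count 10, minimum total 15), TMM scaling, 1 robust quasi-likelihood model over 8 group means and all 24 libraries, and Benjamini-Hochberg adjustment over 20514 genes for each of 14 contrasts, called at an adjusted p under 0.05. Intervals are 95% and cover the spread between libraries. Low counts piled up at multiples of 4 (1.15 to 1.40 times as frequent as neighbours). The counting precision of weak genes may therefore be overstated, which was not tested. With counts divided by 4, edgeR called 1125 genes in KO and 703 in LKO averaged over both times, against 1107 and 642. Replicate libraries differed far beyond counting noise, and no 2 were identical. The test was run before use on simulated counts with 1 spread per gene for all groups. That run cannot speak for a gene whose spread differs between groups, such as Onecut1, and no conclusion is drawn from it. Alternatives were DESeq2 1.42.0, limma 3.58.1 on log2(TPM + 1) and log2(TPM + 0.1), other scalings and filters, counts divided by 4, and fits without certain libraries.

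The genes, the lists and the alternatives that leave out named libraries were chosen with earlier results of these data known. Named besides the 9 genes were Bmal1, Afm, Gc, Dbp and Rbp4, up to 4 called genes per direction of each list in the mean contrasts, and the 3 genes most like each of the 9. Some genes of the lists are not reported here and were left out of every list count and sum. Same-numbered libraries of F CT2 and LKO CT2 deviated together (correlations of 0.18, 0.143 and 0.312); in no other pair of groups did all 3 exceed 0.1. Upstream sequences came from RefSeq (GRCm38.p6) by symbol.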

Additional observations from a re-analysis of the deposited data

How the results depend on the processing

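Each log2 fold change of the 9 genes in the 14 contrasts was recomputed under 14 alternative settings and without each of the 24 libraries, and in LKO against F at CT2 also in the paired fit given below, 4797 values in all. None that was called changed sign, and 238 that were called neither way did. Alb stayed between -1.02 and -0.72 in KO and between -1.05 and -0.76 in LKO. With library totals alone as scaling, the median of all genes moved to 0.10 in KO and 0.16 in LKO, and with limma-trend on log2(TPM + 0.1) to 0.14 and 0.18, against 0.01 and -0.01. Under 14 of these settings the number of all genes called in KO ran from 866 to 1801 and in LKO from 479 to 1645, against 1107 and 642. The 3 libraries low in Ddx3y were KO CT2 replicate 1, F CT2 replicate 3 and LKO CT2 replicate 3. Among the other 8 genes, the count of calls in KO averaged over both times moved from 0 to 2 with DESeq2, to 1 with only the groups compared (Cebpa) and to 1 without the 3 libraries low in Ddx3y (Cebpa). In KO at CT14 it moved to 2 with DESeq2, to 3 with only the groups compared (Foxa3, Cebpa and Onecut1), and to 1 (Cebpa) without the 2 F libraries with pancreatic transcripts and without the 3 libraries low in Ddx3y. In LKO at CT14 it moved to 1 with only the groups compared (Onecut1). For time of day it moved to 1 in F with DESeq2 and without the 3 libraries low in Ddx3y (Hnf4a), and to 1 in LKO with DESeq2 and without the 2 F libraries (Prox1) and without the 3 libraries low in Ddx3y (Hnf4a). In F against WT it moved from 1 to 2 without those 3 libraries (Hnf4a and Foxa2). Leaving out 1 library gave 0 to 1 calls in KO averaged over both times, in KO at CT14, for time in F, for time in LKO and in F against WT, and 0 in all other contrasts.

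With the replicate number as a block (replicate block), the count was 1 in KO at CT14 (Cebpa, adjusted p 0.0286) and 1 for time in F (Hnf4a, 0.0445), and in the other contrasts it was as reported. A paired fit on only F CT2 and LKO CT2, chosen after seeing the data, called 0 of the 8. The same-numbered libraries correlated over 0.1 in 5 of 24 pairs and best with their own number in 7. The cause of these moves was not tested. Every library held at least 493 counts for each gene but Afp, which had at least 82.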

Other observations

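Genes of the fetal liver and of the liver lobule's zones were also read, from lists chosen with earlier results of these data known. Averaged over both times, 5.4% of all genes tested were called in KO and 3.13% in LKO. Of 10 fetal and oncofetal genes 6 were tested, and edgeR called 0 of them in KO or in LKO, where Afp was not called either. Of 10 periportal genes 0 were called in either knockout averaged over both times. Of 10 pericentral genes, Oat, ornithine aminotransferase, was called higher in KO at 0.94 (SE 0.20, adjusted p = 0.00799) and in LKO at 0.96 (SE 0.20, adjusted p = 0.00984), and Cyp1a2, a cytochrome P450, lower in KO at -0.73 (SE 0.21, adjusted p = 0.0428).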
